A study of Mus musculus with 6 samples.

Results

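The genes described here encode negative feedback regulators of MAP kinase signalling. They are 10 of the 19309 genes in the deposited count table and were chosen by symbol: the dual-specificity phosphatases *Dusp1*, *Dusp2*, *Dusp3*, *Dusp4*, *Dusp5*, *Dusp6* and *Dusp16*, the Sprouty genes *Spry1* and *Spry2*, and the Sprouty-related *Spred1*. The bulk RNA libraries came from macrophages grown out of bone marrow, 3 from sEH-/- and 3 from wild-type mice, each from a separate mouse. The soluble epoxide hydrolase (sEH, encoded by *Ephx2*) converts fatty acid epoxides to diols. The sEH-/- mice carry a constitutive deletion in every cell, and the methods describe strain-matched littermates of 8 to 10 weeks as the source of marrow, mostly females. All 6 cultures were treated alike. Monocytes matured for 7 days with the growth factors M-CSF and GM-CSF, each at 15 ng/mL, were driven to an inflammatory M1 state by LPS at 10 ng/mL with IFN-γ at 1 ng/mL, and then repolarized to the pro-resolving M2c state with TGF-β1 (10 ng/mL). The M1 step lasted 24 h per the labels and 12 h per the methods, and TGF-β1 was present for 48 h per the labels and for 24 h or 48 h per the methods. The comparison therefore asks which feedback genes differ with the loss of the sEH in repolarized macrophages, and holds no untreated or M1 library.

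MAP kinases (ERK, JNK and p38) are switched on when an upstream kinase adds phosphate to a threonine and a neighbouring tyrosine. Dual-specificity phosphatases remove both phosphates and so switch the kinase off. Many of their genes are transcribed in response to the very kinases they restrain, which closes a feedback loop. Sprouty and Spred proteins act further upstream and dampen the relay from receptor tyrosine kinases through RAS and RAF to ERK. In macrophages the loop is best known for DUSP1, which limits p38 and JNK activity, and with it cytokine production, after LPS.

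*Ephx2* was counted first to check the genotype labels. Counts were 4, 2 and 1 with the sEH-/- label against 26, 49 and 57 with the wild-type label. Library totals lay between 4400197 and 6096440 counts. All 10 macrophage markers examined were abundant in every library, while the 8 lymphocyte and NK cell markers were not analysed here. Counts of dendritic cell markers summed to 27.5 to 58.3 CPM (counts scaled to a common, TMM-normalized library size) in sEH-/- and 42.1 to 59.3 in wild-type libraries. Stromal markers summed to 11.6 to 18.1 CPM in sEH-/- libraries and 8.12, 60.9 and 23.1 CPM in wild-type replicates 1, 2 and 3, so that wild-type replicate 2 stood apart by its collagen transcripts. In bulk RNA, fewer cells of a type and less RNA per cell cannot be told apart.

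Among the 10 feedback genes, *Dusp1* rose in sEH-/- macrophages, by 1.73-fold. *Dusp6* was 1.50-fold higher with an adjusted p below 0.05, and fell just short of the fold required for a call. *Spry2* and *Dusp3* had higher levels in every sEH-/- library than in any wild-type library, without passing the test. *Dusp2* was the reverse, with every sEH-/- library below every wild-type library at very low counts. *Dusp4*, *Dusp5*, *Dusp16* and *Spred1* overlapped between genotypes, and *Spry1* was too rare to test. The macrophage markers were also above 0 in log2 fold change in 10 of 10 cases, against 6871 of all 13785 tested genes, with a median of 0.21. Their summed level was 2668 to 3237 CPM in sEH-/- and 2341 to 2920 CPM in wild-type libraries, which overlapped. It was highest in the smallest library, sEH-/- replicate 3, and lowest in the largest, wild-type replicate 2. Removal of duplicates by read start alone would limit a gene to about 1 count per exonic base, and whether this limit applied here was not tested. In counts per base, *Cd68* reached 0.922, *Lyz2* 0.891, *Adgre1* 0.709 and *Cd14* 0.616. *Lyz2* had 1153 to 1173 counts in every library, so its CPM fell as the library total rose. None of the 10 markers was called. *Cd14*, the LPS co-receptor, had an adjusted p below the threshold (log2 fold change 0.50, SE 0.10, adjusted p = 0.0288, edgeR). *Cd14*, *Fcgr1* (0.45) and *Ptprc* (0.28) did not overlap between genotypes. The part of the macrophage markers in the results on the members was not tested.

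A gene was called at a Benjamini-Hochberg adjusted p below 0.05 from edgeR's quasi-likelihood test and a change of more than 1.5-fold in either direction, the thresholds in the study's methods. Log2 fold changes are sEH-/- minus wild-type. Of the 10 genes, 9 passed the filter of a mean above 5 counts, 1 was called higher and 0 were called lower. Over all 13785 tested genes, 1.51% were called higher and 1.10% lower. Without the fold threshold, 2 members were higher and 0 lower, against 2.39% and 1.62% of all tested genes. At an unadjusted p below 0.05, 4 members were higher and 2 lower, against 11.1% and 12.2% of all tested genes. DESeq2 called 1 member higher and 0 lower, against 2.04% and 1.52% of the genes to which it gave an adjusted p. The corresponding counts with limma-voom were 2 and 0, against 1.30% and 0.929%. The sEH-/- libraries all lay above the wild-type libraries in 4 of the 9 tested members and below them in 1, where 11.8% and 14.5% of all tested genes did so. With only 9 tested genes, these shares describe the members and carry no test.

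**Figure D1:**
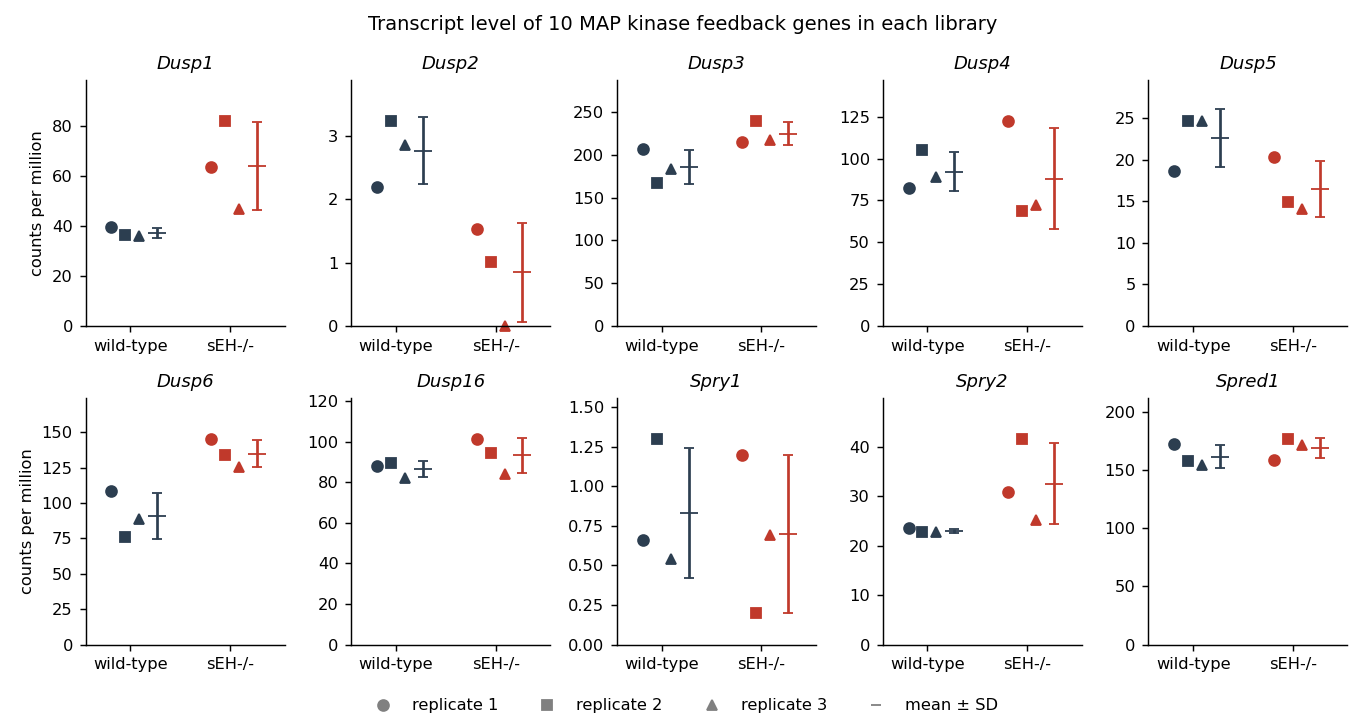
Transcript level of each of the 10 genes in CPM (vertical axes, each from 0) in the 3 wild-type and 3 sEH-/- libraries, with the mean and SD beside the points. *Dusp1*, *Dusp6*, *Spry2* and *Dusp3* lie higher in all 3 sEH-/- libraries, *Dusp2* lies lower, and sEH-/- replicate 2 is the highest library for *Dusp1* at 82.2 CPM.

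*Dusp1*, *Dusp2*, *Dusp4* and *Dusp5* encode phosphatases of the nucleus. *Dusp1* (ENSMUSG00000024190, minus strand, mm10 chr17:26505590-26562128) acts mainly on p38 and JNK. It was present at 63.5, 82.2 and 46.8 CPM in sEH-/- replicates 1, 2 and 3, and at 39.5, 36.3 and 36.0 CPM in wild-type replicates 1, 2 and 3. The wild-type libraries were close together, whereas the sEH-/- libraries spread by 1.76-fold from lowest to highest, and the groups did not overlap. The means were 64.2 ± 17.7 CPM (SD, n = 3) and 37.2 ± 1.96 CPM (SD, n = 3). The log2 fold change was 0.79 (SE 0.17, 95% interval 0.42 to 1.17, adjusted p = 0.0351, edgeR).

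The call on *Dusp1* rested on few libraries. It was lost without sEH-/- replicate 2 (log2 fold change 0.60, adjusted p = 0.0784, edgeR), without wild-type replicate 2 (0.77, adjusted p = 0.159) and without wild-type replicate 3 (0.77, adjusted p = 0.161). It was also lost with the library total as a covariate (0.82, adjusted p = 0.0637), and over all 16 alternatives the adjusted p ran from 7.15e-04 with DESeq2 to 0.161. The summed level of neutrophil markers was also higher in every sEH-/- library than in any wild-type library. The 8 of 10 markers analysed here summed to 70.0, 114 and 73.1 CPM in sEH-/- replicates 1, 2 and 3. In wild-type libraries they summed to 53.1, 47.9 and 51.2 CPM. sEH-/- replicate 2 was the highest for this sum and for *Dusp1*. The order of the other sEH-/- libraries differed, since replicate 3, the lowest for *Dusp1*, exceeded replicate 1 in the marker sum. Nearly all of this sum was *Csf3r* (162 to 409 counts) and *S100a8* (78 to 147 counts), while *S100a9*, *Elane*, *Camp*, *Ngp*, *Ltf* and *Cxcr2* held between 0 and 10 counts in any library. Their part in the *Dusp1* result was not tested.

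*Dusp2* (ENSMUSG00000027368, plus strand, mm10 chr2:127336159-127338376) encodes a phosphatase best known from activated leukocytes. It was the rarest member tested, with 9, 5 and 0 counts in the sEH-/- group and 10, 20 and 16 counts in the wild-type group. All 3 sEH-/- libraries were lower, although replicate 1 of each genotype differed by a single count before scaling. In CPM these were 1.54, 1.01 and 0 against 2.19, 3.24 and 2.86, where the count of 0 allows up to 3 counts, or 0.694 CPM. Summed and scaled by library totals, the 14 counts in sEH-/- cells were 0.323 times the 46 of the wild-type group (exact 95% interval 0.164 to 0.598, for counting error alone). On the log2 scale the change of -1.59 (SE 0.57) did not pass the test (adjusted p = 0.128, edgeR), and it ran from -2.33 to -1.10 as single libraries were left out.

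*Dusp5* (ENSMUSG00000034765, plus strand, mm10 chr19:53529109-53542431) encodes a phosphatase specific for ERK. It was at 20.3, 14.9 and 14.1 CPM in sEH-/- libraries and at 18.7, 24.6 and 24.7 CPM in wild-type libraries. The groups overlapped through sEH-/- replicate 1 and wild-type replicate 1. This gave a log2 fold change of -0.46 (SE 0.18, 95% interval -0.86 to -0.05, adjusted p = 0.166, edgeR).

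*Dusp4* (ENSMUSG00000031530, plus strand, mm10 chr8:34807297-34819894) encodes a close relative of DUSP1 that is induced by ERK. Its levels were 122.6, 68.9 and 72.2 CPM in sEH-/- and 82.5, 105 and 89.3 CPM in wild-type libraries. A single library, sEH-/- replicate 1, exceeded every wild-type library, while the other sEH-/- libraries lay below them all. It changed by -0.06 on the log2 scale (SE 0.19, 95% interval -0.49 to 0.36). Without sEH-/- replicate 1 it became -0.39 (adjusted p = 0.0562, edgeR), and without sEH-/- replicate 2 it turned to 0.10.

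Promoter sequences are shown for *Dusp1* and *Dusp2*, the members with the largest fitted changes, and for *Dusp5*, which was added after its motif matches were seen. RefSeq entries for build GRCm38.p6 (mm10) matched 9 of the 10 genes. The RefSeq starts of *Dusp1* and *Dusp3*, and the windows before them, lie inside the gene spans given here from the count table. The stretch from 250 to 51 bases before the annotated start was searched on both strands for the CRE (TGACGTCA), the site of CREB, for AP-1 (TGANTCA), the site of FOS and JUN, for the CArG box of SRF and for the kappa-B motif of NF-κB. Capitals mark the matches, each sequence being written 5′ to 3′ along its gene.
Dusp1, minus strand, chr17:26508523-26508722: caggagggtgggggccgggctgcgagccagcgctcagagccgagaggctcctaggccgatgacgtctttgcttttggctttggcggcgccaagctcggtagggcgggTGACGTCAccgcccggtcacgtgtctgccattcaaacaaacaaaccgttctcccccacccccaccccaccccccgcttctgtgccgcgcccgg
Dusp2, plus strand, chr2:127335909-127336108: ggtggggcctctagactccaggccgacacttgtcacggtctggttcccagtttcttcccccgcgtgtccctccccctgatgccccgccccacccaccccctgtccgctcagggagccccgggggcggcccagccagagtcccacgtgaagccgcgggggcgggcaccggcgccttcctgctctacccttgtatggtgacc
Dusp5, plus strand, chr19:53528895-53529094: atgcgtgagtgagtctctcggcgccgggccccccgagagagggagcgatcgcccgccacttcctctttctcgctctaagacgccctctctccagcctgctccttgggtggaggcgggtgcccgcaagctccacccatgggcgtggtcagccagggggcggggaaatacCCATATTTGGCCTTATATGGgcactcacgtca

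The *Dusp1* window held 1 CRE, whose first base lies 143 bases before the start, and 0.828% of all 32841 windows of the same length held one. The *Dusp5* window held 2 adjoining CArG boxes that begin 82 and 72 bases before the start, against 1.16% of windows with at least 1. No match to any of the 4 motifs was found in the *Dusp2* window or in those of *Dusp3*, *Dusp6*, *Dusp16*, *Spry1*, *Spry2* and *Spred1*. Matches to AP-1 and kappa-B, absent from all 9 windows, occurred in 5.58% and 5.71% of all windows. A match is a run of letters and does not show that a factor was bound in these cells.

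DUSP6 is a cytoplasmic enzyme selective for ERK and is widely read as a gauge of ERK output. *Dusp6* (ENSMUSG00000019960, plus strand, mm10 chr10:99263231-99267489) was at 145, 134 and 126 CPM in sEH-/- libraries and at 108, 75.6 and 88.4 CPM in wild-type libraries. The groups were clearly apart, with the lowest sEH-/- library above the highest wild-type library. Means were 135 ± 9.69 CPM (SD, n = 3) and 90.7 ± 16.4 CPM (SD, n = 3). The log2 fold change was 0.58 (SE 0.12, 95% interval 0.32 to 0.84), with the lowest adjusted p of the members (0.0295, edgeR) and a size a few thousandths under the fold threshold.

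*Dusp6* was accordingly called in 5 of 16 alternatives. These were RLE scaling (0.59), limma-voom (0.60), the correction for a ceiling of 1 deduplicated read per exonic base (0.64), and the fits without sEH-/- replicate 3 (0.64) or wild-type replicate 1 (0.72). Without wild-type replicate 2 the log2 fold change was 0.46 (adjusted p = 0.125, edgeR). The adjusted p rose above 0.05 when sEH-/- replicate 2 or either of the wild-type replicates 2 and 3 was left out, where it reached 0.143, and with the library total as a covariate (0.0553).

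*Dusp16* (ENSMUSG00000030203, minus strand, mm10 chr6:134715468-134792625) encodes a phosphatase that acts mainly on JNK. Its values of 101, 94.7 and 84.0 CPM in sEH-/- libraries overlapped with 88.0, 89.7 and 82.3 CPM in wild-type libraries. The log2 fold change of 0.11 had a 95% interval from -0.08 to 0.30, so that a change as large as the fold threshold lay outside it.

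*Dusp3* (ENSMUSG00000003518, minus strand, mm10 chr11:101971143-101987013) encodes a small phosphatase that lacks the kinase-binding domain of the other DUSP members. It was at 215, 240 and 218 CPM in sEH-/- and at 206, 167 and 183 CPM in wild-type libraries. The sEH-/- libraries were all higher, with a narrow gap between sEH-/- replicate 1 and wild-type replicate 1. On the log2 scale the difference was 0.28 (SE 0.09, 95% interval 0.08 to 0.48, adjusted p = 0.0974, edgeR).

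Of the Sprouty family, *Spry2* (ENSMUSG00000022114, minus strand, mm10 chr14:105891947-105896819) followed *Dusp1* in its library pattern. Spry2 is a membrane-associated inhibitor of RAS-RAF-ERK signalling from growth factor receptors. Its level was 30.9, 41.5 and 25.2 CPM in sEH-/- libraries and 23.5, 22.7 and 22.7 CPM in wild-type libraries. As for *Dusp1*, the wild-type libraries were nearly equal, sEH-/- replicate 2 was the highest and sEH-/- replicate 3 came close to the wild-type range. The log2 fold change was 0.51 (SE 0.17, 95% interval 0.13 to 0.89, adjusted p = 0.108, edgeR). It was called in 1 of 16 alternatives, without sEH-/- replicate 3 (0.66, adjusted p = 0.0364).

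*Spred1* (ENSMUSG00000027351, plus strand, mm10 chr2:117121374-117182279) encodes a membrane protein that recruits neurofibromin to RAS. It was the steadiest member, at 159, 177 and 172 CPM in sEH-/- and 173, 158 and 155 CPM in wild-type libraries. The groups overlapped. Its log2 fold change was 0.07 with a 95% interval from -0.10 to 0.23.

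*Spry1* (ENSMUSG00000037211, plus strand, mm10 chr3:37639947-37644598), a relative of *Spry2*, had 7, 1 and 3 counts in sEH-/- and 3, 8 and 3 counts in wild-type libraries. The 11 counts were 0.834 times the 14 after scaling by library totals, with an exact 95% interval of 0.343 to 1.98. The interval covers counting error alone, and at this depth any ratio within it remains possible.

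Levels between genes were compared per length, as CPM per kilobase of exon. In wild-type cells *Dusp3* was the most abundant member at 39.6 ± 4.25 CPM per kilobase (SD, n = 3). It was followed by *Dusp4* (33.7 ± 4.24), *Dusp6* (29.0 ± 5.24) and *Spred1* (23.9 ± 1.43). Each of these overlapped with its neighbour in the order. A clear step led down to *Dusp1* (11.2 ± 0.591), *Dusp16* (11.1 ± 0.498) and *Spry2* (10.9 to 11.3 over the 3 libraries), which overlapped with one another, then to *Dusp5* (9.16 ± 1.40), *Dusp2* (1.38 ± 0.264) and *Spry1* (0.286 ± 0.140), each apart from the next. In sEH-/- cells *Dusp3* (47.9 ± 2.86) was followed by *Dusp6* (43.1 ± 3.09) and *Dusp4* (32.1 ± 10.99), and *Dusp1* (19.4 ± 5.35) and *Spry2* (15.6 ± 3.96) had higher means than *Dusp5* (6.65 ± 1.37). *Dusp3*, *Dusp4*, *Dusp6* and *Spred1* together made up 69.6% to 76.3% of the summed level per kilobase of the 10 genes in every library. No exon base of a member was shared with another annotated gene on its strand. The highest value among the members was 0.271 counts per exonic base, in *Dusp6*. Removal of duplicates by read start alone would set a limit of about 1.

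The members did not vary together within a genotype. sEH-/- replicate 2 and wild-type replicate 1 were the highest libraries of their genotypes for *Dusp1*, *Dusp3*, *Spry2* and *Spred1*. sEH-/- replicate 1 and wild-type replicate 2, the libraries with the largest totals of each genotype, were the highest for *Dusp2*, *Dusp4*, *Dusp16* and *Spry1*. *Dusp5* and *Dusp6* were highest in sEH-/- replicate 1 and in wild-type replicates 3 and 1, respectively. The spread among sEH-/- libraries, as highest over lowest, was largest among the well-counted members for *Dusp4* (1.78-fold), *Dusp1* (1.76-fold) and *Spry2* (1.64-fold) and smallest for *Spred1* (1.11-fold) and *Dusp3* (1.11-fold). Among wild-type libraries it was 1.10-fold for *Dusp1* and 1.04-fold for *Spry2*, and reached 1.43-fold for *Dusp6*.

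**Figure D2:**
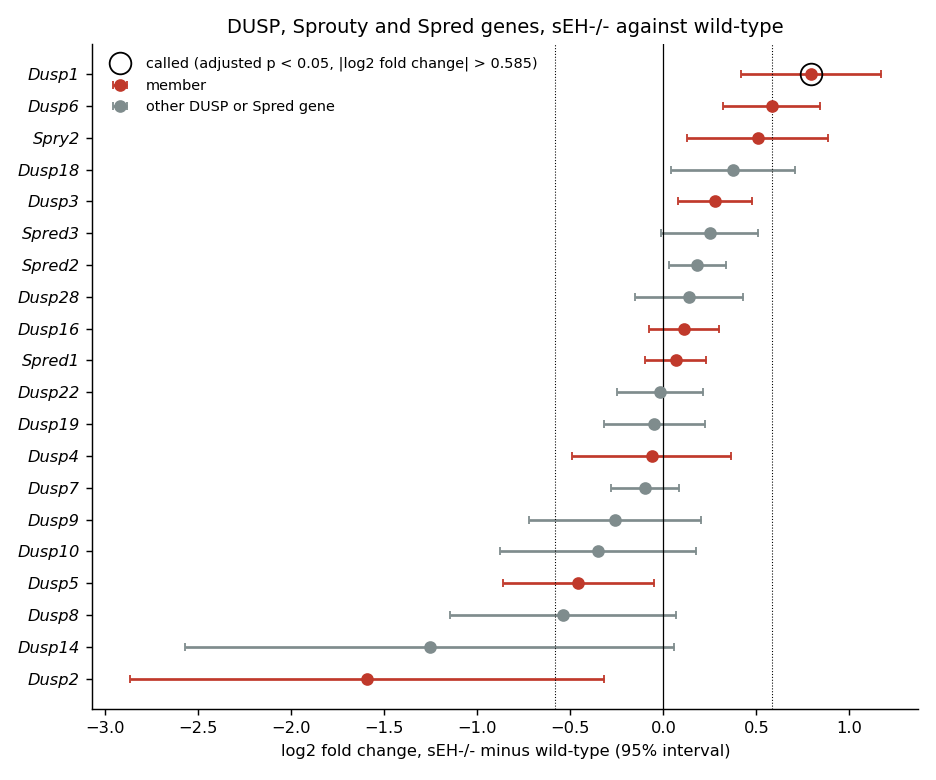
Log2 fold change (horizontal axis, sEH-/- minus wild-type, with its 95% interval) of the 9 tested members in red and of 11 other DUSP and Spred genes in grey, ordered by size. *Dusp1* at 0.79 is the only gene of the 20 that was called (ringed), and *Dusp6* at 0.58 lies at the dotted fold threshold of 1.5.

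The remaining phosphatase, Sprouty and Spred genes were described from a list of 14 symbols. Of 12 found in the table, 11 were tested and 0 were called by edgeR, DESeq2 or limma-voom, while 2 were higher and 0 lower at an unadjusted p below 0.05 (11.1% and 12.2% of all tested genes). These were *Spred2*, a relative of *Spred1* (log2 fold change 0.18, SE 0.07, adjusted p = 0.143, edgeR), and the atypical phosphatase *Dusp18* (0.37, SE 0.15, adjusted p = 0.169). The stress kinase phosphatases *Dusp10* and *Dusp8* had log2 fold changes of -0.35 and -0.54, and the ERK phosphatases *Dusp7* and *Dusp9* of -0.10 and -0.26. *Spred3* was at 0.25. The atypical phosphatases *Dusp14*, *Dusp19*, *Dusp22* and *Dusp28* were at -1.26, -0.05, -0.02 and 0.14. The largest of these, *Dusp14*, rested on 12, 5 and 1 counts in sEH-/- and 5, 24 and 18 counts in wild-type libraries, which overlapped. *Spry4* was too rare to test, with 3, 0 and 0 counts under the sEH-/- genotype and 0, 4 and 1 under the wild-type genotype. The median over the 11 genes was -0.05, against 0.11 over the 9 tested members and -8.5e-04 over all tested genes. All sEH-/- libraries lay above the wild-type libraries in 3 of these 11 genes and below them in 1, where 11.8% and 14.5% of all tested genes did so.

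The MAP kinases and the MAP kinase kinases that activate them showed no call. Of 18 MAP kinase and MAP kinase kinase symbols, 15 were tested, with 0 called by any of the 3 tools, 3 higher and 1 lower at an unadjusted p below 0.05 (again against 11.1% and 12.2%), and a median log2 fold change of 0.04. *Mapk3*, which encodes an ERK kinase, was at 0.04, and *Mapk14*, which encodes the main p38 kinase, was at 0.18. Among 10 kinases activated by ERK or p38, 4 were higher and 2 lower at an unadjusted p below 0.05 (11.1% and 12.2%). Of the 10, 0 were called higher and 1 was called lower, against 1.51% and 1.10% of all tested genes. This was *Rps6ka2*, a ribosomal S6 kinase family member downstream of ERK, at 63.4, 56.6 and 69.4 CPM in sEH-/- and 82.5, 112 and 93.8 CPM in wild-type libraries (log2 fold change -0.61, SE 0.12, adjusted p = 0.0266, edgeR). Its call was lost with the covariate (adjusted p = 0.0544) and without each of 3 libraries. *Rps6ka3*, *Mknk2* and *Mapkapk2*, which had the highest mean counts of this list, lay between -0.03 and 0.05.

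Further upstream, calls went in both directions. Of 14 MAP kinase kinase kinases and partners, 1 was called higher and 1 lower, against 1.51% and 1.10% of all tested genes. At an unadjusted p below 0.05, 3 were higher and 3 lower (11.1% and 12.2% of all tested genes). *Map3k5*, a stress-activated kinase upstream of JNK and p38, rose from 25.5 ± 5.89 to 59.8 ± 16.3 CPM (SD, n = 3 each; log2 fold change 1.24, SE 0.21, adjusted p = 0.0179, edgeR). *Map3k20*, a kinase of the ribotoxic stress response, fell from 148 ± 28.1 to 91.6 ± 11.4 CPM (-0.70, SE 0.13, adjusted p = 0.0266). *Tab2*, *Map3k3* and *Map3k2*, with the highest mean counts here, had log2 fold changes of -0.04, -0.03 and -0.34. In the RAS-RAF relay, 24 of 25 genes were tested, with 3 higher and 4 lower at an unadjusted p below 0.05 (11.1% and 12.2%). Of the 24, 2 were called higher and 1 was called lower, again against 1.51% and 1.10% of all tested genes. The RAS activator *Rasgrp4* rose (1.24, SE 0.23, adjusted p = 0.0252), as did the caveolar scaffold *Cav1* (0.60, SE 0.14, adjusted p = 0.0446). Another RAS activator, *Rasgrp1*, fell (-0.85, SE 0.21, adjusted p = 0.0484). The call on *Rasgrp1* was lost in 8 of 16 alternatives, among them RLE scaling (adjusted p = 0.0504), limma-voom (0.0505), thinning to the smallest library (0.0526) and the library total as a covariate (0.0904). That on *Cav1* was lost in 6 of 16, with library totals alone (0.58, under the fold threshold), the replicate block (adjusted p = 0.0575), the covariate (0.0716) and 3 left-out libraries. That on *Rasgrp4* was lost in 4 of 16, with the block (adjusted p = 0.0516) and 3 left-out libraries. *Cbl* and *Gab2*, with high mean counts, were at -0.03 and -0.01.

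Of 21 genes known as transcriptional output of ERK, 19 were tested, with a median log2 fold change of 0.16. Of the 19, 1 was called higher and 0 were called lower, against 1.51% and 1.10% of all tested genes. Without the fold threshold, 3 were higher and 0 lower, against 2.39% and 1.62%. At an unadjusted p below 0.05, 5 were higher and 2 lower (11.1% and 12.2%). The called gene was *Myc*, a growth-promoting transcription factor, at 20.0, 15.9 and 12.3 CPM in sEH-/- and 6.80, 3.89 and 7.34 CPM in wild-type libraries. The groups were far apart (log2 fold change 1.44, SE 0.27, adjusted p = 0.0266, edgeR). The 3 genes of the list with the highest mean count, *Ccnd1*, *Plaur* and *Fos*, were at 0.22, -0.02 and 0.19, and none was called. DESeq2 called 2 genes of this list higher and 1 lower, against 2.04% and 1.52% of the genes to which it gave an adjusted p. With limma-voom, 2 were called higher and 0 lower, against 1.30% and 0.929%. The 7 edgeR calls over these 6 lists became 1 without sEH-/- replicate 2, and 0 without wild-type replicate 2 or without wild-type replicate 3.

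**Figure D3:**
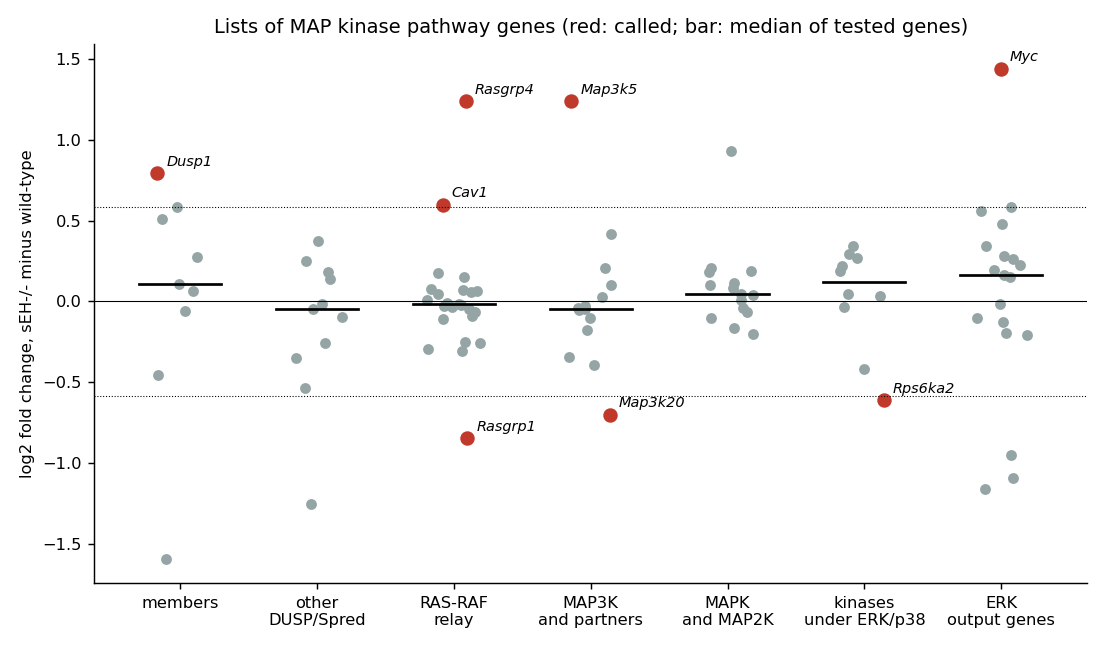
Log2 fold change (vertical axis, sEH-/- minus wild-type) of each tested gene in the 9 tested members and the 6 pathway lists (horizontal axis, with points spread sideways for legibility). Called genes are red and named, black bars are medians, and calls lie on both sides of 0, from *Rasgrp1* at -0.85 to *Myc* at 1.44.

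Single libraries moved the members by unequal amounts. *Dusp3*, *Dusp16*, *Spred1*, *Dusp1*, *Dusp6* and *Spry2* stayed above 0 with any 1 library left out, and *Dusp2* and *Dusp5* stayed below 0. *Dusp1* ran from 0.60 to 0.98, *Dusp6* from 0.46 to 0.72, *Spry2* from 0.32 to 0.66 and *Dusp5* from -0.65 to -0.35. *Dusp4* ran from -0.39 to 0.10 and thus had no direction that held. Over all tested genes, the number called fell from 360 to 96, 25 and 6 without sEH-/- replicate 2, wild-type replicate 2 and wild-type replicate 3, and rose to 570 and 625 without sEH-/- replicate 3 and wild-type replicate 1. With any of the first 3 of these libraries left out, no member was called.

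**Figure D4:**
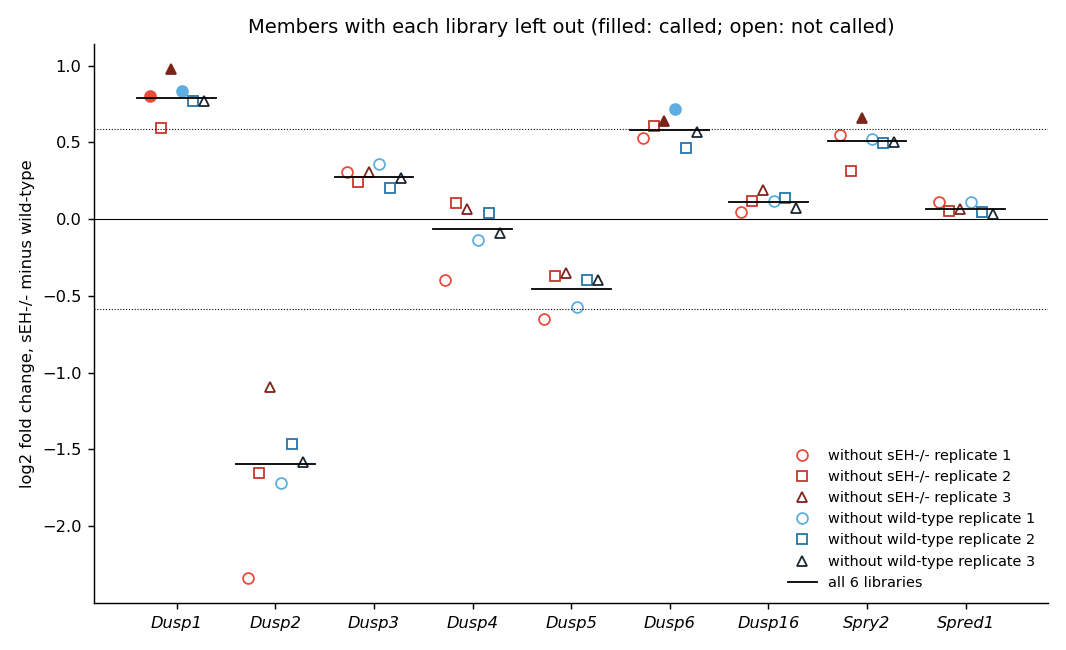
Log2 fold change (vertical axis, sEH-/- minus wild-type) of the 9 tested members with each library left out in turn (symbols) and with all 6 libraries (black bars), filled where the gene was called. *Dusp1* is filled in 3 of 6 fits, *Dusp6* in 2 and *Spry2* in 1, and *Dusp4* lies on both sides of 0.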

How the data were processed

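The authors deposited raw counts per gene. Per the labels, reads were processed with Trimmomatic 0.39, STAR 2.7.7a, Picard 2.21.7 and featureCounts 1.6.5 for mm10. The methods describe the removal of duplicates and of ribosomal, mitochondrial and multi-mapping reads, and strand-aware counting over exons without reads over several genes, with other tool versions. The library kit and RNA input also differ between labels and methods. Genes with a mean above 5 counts (13785 of 19309) were tested in R 4.3.3 with edgeR 4.0.16 (TMM, glmQLFit, glmQLFTest). TMM factors lay between 0.982 and 1.03. The SE is the log2 fold change over the square root of F, and 95% intervals use the fit's total degrees of freedom. DESeq2 1.42.0 and limma 3.58.1 were alternatives. Scripts were tested on simulated data.

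The members, lists and alternatives were chosen with earlier results of these data known. The text names every member, every other tested DUSP, Sprouty and Spred gene of a list, and in each further list the called genes and the 3 with the highest mean count, of which 2 are not reported here. Exonic lengths came from GENCODE M21 and promoters from RefSeq. Libraries of 1 genotype differed by 2.27 to 4.91 in chi-square per degree of freedom, so none was counted as a duplicate. All p-values rest on 3 mice per genotype, with the spread of each gene pooled over both genotypes and moderated across genes.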

Additional observations from a re-analysis of the deposited data

How the results depend on the processing

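All genes called numbered 360, and 234 with the replicate block, 171 with the library total as a covariate and 553 with no fold threshold, with a range of 6 to 625 as single libraries were left out. Members called higher numbered 1, became 2 with RLE size factors, limma-voom, ceiling-corrected counts or no fold threshold and 0 with the covariate, and ranged from 0 to 3 as single libraries were left out. Members called lower stayed at 0 in all 17 alternatives. Genes called in the pathway lists numbered 7, became 4 with the covariate and ranged from 0 to 9 with libraries left out. The cause of these shifts was not tested. Same-numbered libraries did not deviate together (correlations of deviations -0.22, -0.46 and -0.06). With 3 libraries per genotype, these values cannot decide whether same-numbered mice were paired. With the block, *Dusp1* was at 0.76 (adjusted p = 0.0320, edgeR) and *Dusp6* at 0.58, and members called higher remained at 1, with 5 genes of the pathway lists.

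Among the genes named, signs turned only for the following. With the covariate, *Dusp4* was at 0.041, *Mapk3* at -0.028 and *Mapkapk2* at -0.014. With single libraries left out, *Dusp4* ran from -0.39 to 0.10, *Cbl* from -0.13 to 0.032, *Dusp19* from -0.13 to 0.0083, *Dusp22* from -0.060 to 0.0051, *Gab2* from -0.063 to 0.054, *Mapk3* from -0.030 to 0.14, *Mapkapk2* from -0.022 to 0.10, *Plaur* from -0.082 to 0.039 and *Rps6ka3* from -0.092 to 0.019. Depth limits *Dusp2*, *Dusp14*, *Spry1* and *Spry4*, which held at most 24 counts in any library.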
